A study of Mus musculus with 24 samples.

Results

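A set of 9 CC chemokine genes, Ccl2, Ccl3, Ccl4, Ccl5, Ccl6, Ccl7, Ccl8, Ccl9 and Ccl12, were followed in BV2 cells and in the extracellular vesicles (EVs) that these cells release. They were chosen by gene symbol, and all 9 were found among the 13290 genes in each of the 6 count tables, which also list the CC ligands Ccl24 and Ccl25. BV2 is an immortalised mouse microglial line, and EVs are membrane particles that carry RNA and protein out of the cell. Cultures were untreated or received 1 of 3 agents for 72 h. These were 100 ng/mL of lipopolysaccharide (LPS), a bacterial wall component sensed through TLR4, and 50 ng/mL of interleukin-10 (IL-10) or of TGF-β (transforming growth factor-β), cytokines that restrain inflammation. Each treatment and the control had 3 libraries from cells and 3 from EVs, 24 libraries in 8 groups. All groups come from 1 cell line, so no group speaks for microglia in tissue. The labels tie no library to a separate culture, and p-values therefore measure the spread between libraries, which may be technical.

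CC chemokines are small secreted proteins named for a pair of adjacent cysteines near the amino end of the mature chain. They bind receptors coupled to G proteins on leukocytes and set up gradients along which monocytes, T cells and other cells migrate. In the brain, microglia are a main source of them during infection and injury. The MCP group in the mouse is Ccl2, Ccl7, Ccl8 and Ccl12, and of these Ccl2 is best known for drawing in monocytes through CCR2. Ccl3, Ccl5, Ccl6 and Ccl9 bind CCR1.

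The feature that defines the family is shown here as 30 bases of the coding sequence of 8 members, read from the GENCODE M21 annotation of GRCm38, with the codons of the 2 adjacent cysteines in capitals.
Ccl2: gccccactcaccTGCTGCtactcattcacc
Ccl4: cctcccacttccTGCTGTttctcttacacc
Ccl5: gacaccactcccTGCTGCtttgcctacctc
Ccl6: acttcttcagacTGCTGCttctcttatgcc
Ccl7: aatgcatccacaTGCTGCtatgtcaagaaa
Ccl8: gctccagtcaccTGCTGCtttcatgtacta
Ccl9: gactcttcagatTGCTGCctgtcctataac
Ccl12: accccagtcacgTGCTGTtataatgttgtt
The paired codons were at positions 32 and 33 in Ccl8 and at 57 and 58 in Ccl9, the earliest and the latest of the 9, counted from the start codon. In Ccl6 they were at 50 and 51. These latter 2 genes encode chemokines with an extended amino end, which proteases are known to shorten. Over the whole coding sequence, identity between pairs ranged from 57.2% (Ccl5 and Ccl7) to 70.8% (Ccl8 and Ccl12). No pair shared a stretch of 31 bases, and the longest identical run was 23 bases, in Ccl6 and Ccl9. No exon of the 9 genes overlapped an exon of another gene in that annotation.

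All 9 genes lie on chromosome 11, in 2 runs of neighbouring CC ligand genes in RefSeq order. The first run is Ccl2, Ccl7, Ccl11, Ccl12, Ccl8 and Ccl1, of which 4 of 6 were listed, and the second is Ccl5, Ccl9, Ccl6, Ccl3 and Ccl4, of which 5 of 5 were listed. RefSeq promoter sequences on GRCm38.p6 were matched for 5 of the 9 members. Those of Ccl9 and Ccl3, which moved with LPS and TGF-β, and of Ccl8 and Ccl12, which among cells were highest after IL-10, are printed as the 250 bases before the start, with motif matches in capitals.
Ccl9, chr11:83578637-83578886, minus strand: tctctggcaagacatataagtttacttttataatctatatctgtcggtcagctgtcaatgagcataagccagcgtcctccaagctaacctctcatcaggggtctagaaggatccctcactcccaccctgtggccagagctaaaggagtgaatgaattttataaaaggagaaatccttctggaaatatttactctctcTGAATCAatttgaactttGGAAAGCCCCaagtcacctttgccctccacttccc
Ccl3, chr11:83649379-83649628, minus strand: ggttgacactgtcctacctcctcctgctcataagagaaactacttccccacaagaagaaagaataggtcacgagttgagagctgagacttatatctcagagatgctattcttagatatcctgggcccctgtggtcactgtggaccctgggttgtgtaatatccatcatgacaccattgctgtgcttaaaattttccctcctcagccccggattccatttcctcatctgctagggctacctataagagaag
Ccl8, chr11:82114935-82115184, plus strand: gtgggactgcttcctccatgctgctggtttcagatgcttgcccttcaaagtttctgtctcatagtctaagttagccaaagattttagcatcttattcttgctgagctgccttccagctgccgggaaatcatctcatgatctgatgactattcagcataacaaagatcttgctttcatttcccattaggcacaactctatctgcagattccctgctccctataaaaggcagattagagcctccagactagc
Ccl12, chr11:82101595-82101844, plus strand: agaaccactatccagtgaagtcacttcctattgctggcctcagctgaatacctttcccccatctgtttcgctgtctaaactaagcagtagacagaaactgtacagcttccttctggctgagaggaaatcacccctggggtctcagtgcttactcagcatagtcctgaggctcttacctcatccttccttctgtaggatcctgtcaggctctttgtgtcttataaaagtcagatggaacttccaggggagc
In the 300-base windows that add 50 bases after the start, 6 motifs were searched on both strands. The search covered NF-kB, ISRE, GAS (TTCNNNGAA), AP-1 (TGANTCA), C/EBP (TTGCNNAA) and a palindromic Smad element (GTCTAGAC). Of the 5 members, only Ccl9 held matches, 1 to AP-1 (TGAATCA, bases -53 to -47 from the start) and 1 to NF-kB (GGAAAGCCCC, bases -35 to -26). Among 27025 promoters, 7.93% held the AP-1 motif, 4.35% NF-kB, 3.49% ISRE, 8.47% GAS, 10.8% C/EBP and 0.211% the Smad element.

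The depth was 26.14 to 42.13 M counts in libraries from cells, and 3.02 to 17.98 M in those from EVs. Levels are CPM, the counts scaled to a library total of 1 M, as mean ± SD of n = 3, and a count of 0 allows up to 3 counts, which is 0.0712 to 0.115 CPM in cells and 0.167 to 0.994 CPM in EVs for counting error alone. Folds come from edgeR's quasi-likelihood fit, which rescales libraries, so they can differ from the ratio of mean CPM. A member is called where the adjusted p over all genes tested is under 0.05. As bulk RNA was measured, fewer cells that make a chemokine and less of its RNA per cell cannot be told apart. The microglial label was checked on 15 markers, of which 13 were listed, all but P2ry12 and Sall1. In control cells Cd68 reached 2550 CPM, Tyrobp 1318 and Csf1r 836, while Tmem119 was at 11.4 and Cx3cr1 at 0.0810, which is under the floor of 3 counts. Neuronal markers (3 of 5 listed) summed to at most 0.285 CPM in any cell library. Those of B cells, oligodendrocytes, endothelium and fibroblasts summed to at most 1.28, 1.93, 1.33 and 0 CPM, with 1 or 2 genes listed each. T cell markers (2 of 6 listed) summed to 4.85 to 15.3 CPM and astrocyte markers (3 of 5 listed) to 6.27 to 13.4 CPM, a range that holds the Tmem119 level.

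**Figure D1:**
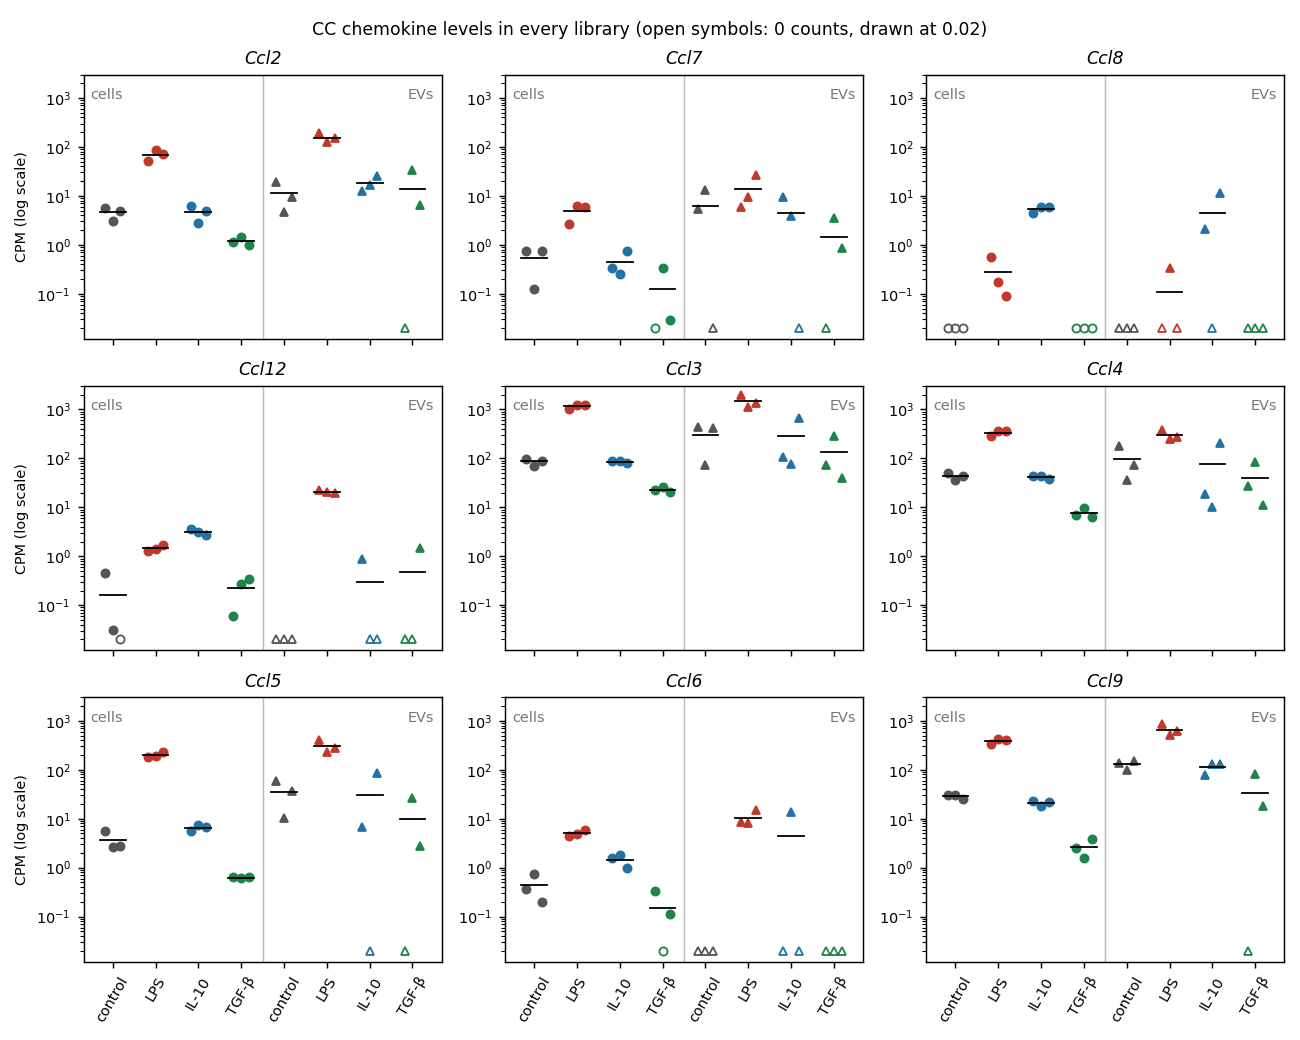
Level of each of the 9 CC chemokine genes in every library, in CPM on a log axis, with 1 point per library and cells left of EVs (open symbols are libraries at 0). In cells the points of a group lie close together for Ccl3, Ccl4 and Ccl9, whereas EV points of 1 group spread widely.

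In untreated cells, Ccl3 and Ccl4 made up most of the chemokine counts. The 9 genes summed to 167 ± 25.4 CPM, of which Ccl3 took 51.4% ± 2.56, Ccl4 25.7% ± 0.512 and Ccl9 17.4% ± 3.45. Levels of different genes were compared per kilobase of exon. On that scale the order in control cells was Ccl3 (112 ± 19.7 CPM per kb), Ccl4 (65.4 ± 11.1), Ccl9 (9.51 ± 1.10), Ccl5 (6.85 ± 3.08) and Ccl2 (5.65 ± 1.67). Ccl3 and Ccl4 did not overlap with each other or with the rest. The ranges of Ccl9 and Ccl5 overlapped, as did those of Ccl5 and Ccl2. Ccl7, Ccl6 and Ccl12 followed below 1 CPM per kb with overlapping ranges, and Ccl8 had no count in any control library.

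After LPS, each member that passed the filter on low counts rose in the cells. Of the 8 members tested, 8 were called higher, against 28.6% of the 11951 genes tested, and the median log2 change of the 8 was 3.57 against 0.01 over all genes tested. The groups did not overlap in CPM for any of the 8, as for 62.3% of all genes tested. Ccl12, with 13 counts over the control libraries, passed the filter through the LPS libraries and could enter these counts only as higher. The summed level reached 2171 ± 247 CPM.

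Among the MCP group, Ccl2, the main monocyte attractant, was at 5.76, 3.10 and 4.92 CPM in the control libraries and at 51.2, 84.9 and 70.9 CPM after LPS. The lowest LPS library thus lay well above the highest control. The change was 14.4-fold (log2 3.85, SE 0.27, edgeR adjusted p = 5.45e-06). Ccl7, which shares CCR2 with Ccl2, went from 0.743, 0.125 and 0.742 CPM to 2.64, 6.07 and 6.04 CPM. It rose 8.84-fold (log2 3.14, SE 0.49, edgeR adjusted p = 8.42e-05), and the first LPS library was the lowest for both genes. Ccl12, a mouse CCR2 ligand, had 12, 1 and 0 counts in the control libraries and 1.26, 1.40 and 1.71 CPM after LPS. Its rise of 9.03-fold (log2 3.17, SE 0.72, edgeR adjusted p = 0.00121) was uneven in the controls, since 12 of the 13 control counts came from library 1. Without that library the log2 change was 6.13, and without control library 3 it was 2.59, both still called. Ccl8 had 24, 5 and 3 counts after LPS and none in controls, which was too few for that filter. It was called higher where it was tested, with a filter of 1 count (edgeR adjusted p = 0.00472) and with all 12 cell libraries in the fit (0.00128). Its mean of 0.279 ± 0.256 CPM was at least 2.73-fold higher than the control floor of 3 counts per library.

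Ccl3, which attracts monocytes and T cells, was at 99.0, 69.5 and 90.0 CPM in control cells and at 1031, 1225 and 1240 CPM after LPS. Ccl4 was at 50.4, 35.8 and 43.2 CPM and rose to 279, 366 and 361 CPM. In both genes the LPS libraries lay far above the controls, and LPS library 1 was the lowest of the 3. Ccl3 rose 12.9-fold (log2 3.69, SE 0.14, edgeR adjusted p = 1.61e-08), and Ccl4 rose 7.44-fold (log2 2.89, SE 0.16, edgeR adjusted p = 4.73e-07). The ratio of Ccl3 to Ccl4 counts, 1.94 to 2.08 in control cells, was 3.35 to 3.70 after LPS, with no overlap. Ccl5, which also attracts T cells, started low, at 5.54, 2.60 and 2.80 CPM, and reached 184, 195 and 227 CPM. Its log2 change of 5.75 (SE 0.25) was the highest of the members tested. Ccl5 thereby went from 2.13% ± 0.648 to 9.33% ± 0.772 of the chemokine counts, while Ccl4 went from 25.7% to 15.4% ± 0.546. Per kilobase, Ccl5 (380 ± 42.2) stood next to Ccl4 (508 ± 73.9), and their ranges overlapped.

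Of the CCR1 ligands, Ccl9 was at 30.7, 30.3 and 24.8 CPM in controls and at 331, 423 and 407 CPM after LPS. It rose 12.9-fold (log2 3.69, SE 0.11, edgeR adjusted p = 2.23e-12), with the smallest standard error among the members. Ccl6, its closest relative in the second run of genes, was far lower, at 0.372, 0.752 and 0.202 CPM in controls and 4.53, 4.92 and 5.95 CPM after LPS. Ccl6 rose 10.9-fold (log2 3.44, SE 0.36, edgeR adjusted p = 1.53e-07). Without control library 2, which held its highest control value, the log2 change was 4.09.

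**Figure D2:**
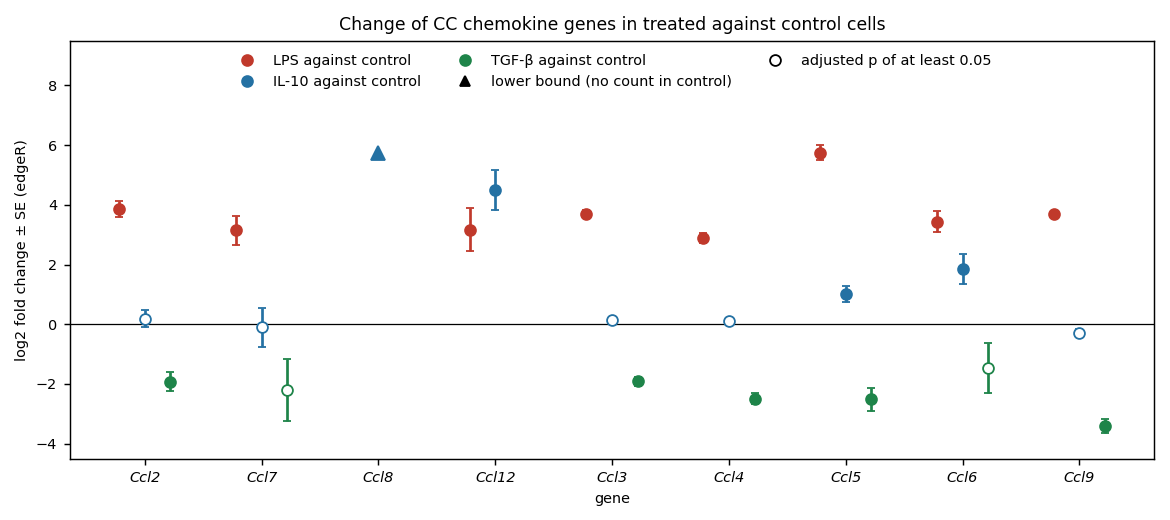
Log2 fold change of each member tested in treated against control cells, with bars of ± SE. Open symbols mark an adjusted p of at least 0.05, and a triangle the lower bound of Ccl8 under IL-10 (5.73). Not tested and not drawn are Ccl8 under LPS, and Ccl8 and Ccl12 under TGF-β. All LPS values drawn lie above 0 and all TGF-β values drawn below 0. Of the IL-10 values, 4 are filled circles or the triangle and 5 are open.

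IL-10 raised 4 of the members, led by Ccl8 and Ccl12, and the sum of the 9 genes was 170 ± 9.10 CPM, against 167 in control. That closeness holds for scaling by library total, as under TMM scaling the IL-10 sum lay above the control sum. The control libraries are the same as in the LPS comparison. Of the 9 members tested, 4 were called higher and 0 lower, against 12.3% of the 11790 genes tested called higher. Ccl8, with no control count, and Ccl12, with 13 over the control libraries, passed the filter through the IL-10 libraries. Both could therefore enter this count only as higher. The members' median log2 change was 0.19, against 0.00 over all genes tested.

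Ccl8, the MCP group member with no control counts, had 164, 204 and 207 counts after IL-10, which is 4.52, 5.87 and 5.93 CPM. All 3 IL-10 libraries lay above every other cell library. The mean of 5.44 ± 0.799 CPM was at least 53.2-fold higher than the control floor of 3 counts per library, and the edgeR adjusted p was 4.19e-09. Ccl12 was at 3.52, 3.19 and 2.69 CPM after IL-10, above its 1.26 to 1.71 CPM after LPS. It rose 22.7-fold against control (log2 4.51, SE 0.67, edgeR adjusted p = 0.000214), and without control library 1 its log2 change was 7.44. The ratio of Ccl2 to Ccl12 counts was 40.7 to 60.8 after LPS and 0.874 to 1.86 after IL-10.

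Ccl6 was at 1.57, 1.81 and 1.00 CPM after IL-10, above each control library. It rose 3.63-fold (log2 1.86, SE 0.50, edgeR adjusted p = 0.0113), and this call was lost without control library 1 (edgeR adjusted p = 0.0567), control library 3 (0.0625) or IL-10 library 2 (0.0563). Without control library 2 the log2 change was 2.49. Ccl5 was at 5.62, 7.27 and 6.73 CPM, so that its lowest IL-10 library lay just above the highest control at 5.54. Its log2 change was 1.01 (SE 0.26), and without control library 2 or 3 it no longer passed (edgeR adjusted p = 0.0564 and 0.0575). Without control library 3 only 2 of the 9 members were called, Ccl8 and Ccl12.

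The remaining members were not called under IL-10. Ccl2 was at 6.25, 2.79 and 5.01 CPM, Ccl3 at 89.4, 88.1 and 78.9 CPM and Ccl4 at 43.9, 43.5 and 37.6 CPM, all overlapping with control. Their log2 changes of 0.19 (-0.39 to 0.76 at 2 SE on either side), 0.14 (-0.08 to 0.37) and 0.11 (-0.12 to 0.33) had edgeR adjusted p of 0.696, 0.402 and 0.552. Ccl7 was at 0.330, 0.259 and 0.745 CPM (log2 -0.10, SE 0.65, edgeR adjusted p = 0.934). Ccl9 was at 23.4, 18.3 and 21.8 CPM, each below the lowest control at 24.8, but its log2 change of -0.28 (SE 0.12) did not pass (edgeR adjusted p = 0.100). Groups that do not overlap in CPM were found for 45.5% of all genes tested in that comparison.

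TGF-β, compared with the same control libraries, lowered the abundant members. Of the 7 tested, 5 were called lower and 0 higher, against 15.4% of the 11798 genes tested called lower. The median log2 change was -2.20, against 0.01 over all genes tested, and the sum of the 9 genes was 35.6 ± 4.12 CPM.

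Ccl9 was at 2.48, 1.61 and 3.87 CPM after TGF-β, and every library was far below the control range of 24.8 to 30.7 CPM (44.5% of all genes tested had groups without overlap). It had the strongest decrease of the members, 10.6-fold (log2 -3.41, SE 0.24, edgeR adjusted p = 1.76e-06). Its share of the chemokine counts was 7.74% ± 4.00, against 17.4% in control. Ccl3 was at 22.4, 26.2 and 20.2 CPM and Ccl4 at 7.03, 9.68 and 6.21 CPM, again with no overlap with control. Ccl3 fell by 1.90 on the log2 scale (SE 0.15, edgeR adjusted p = 4.49e-06) and Ccl4 fell by 2.50 (SE 0.19, edgeR adjusted p = 2.37e-06). The ratio of Ccl3 to Ccl4 counts was 2.71 to 3.25, above that in control cells, and Ccl3 made up 64.4% ± 1.86 of the chemokine counts. Ccl5 was at 0.642, 0.612 and 0.635 CPM, with an SD of 0.0156 CPM and no overlap with control, and had a log2 change of -2.52 (SE 0.38, edgeR adjusted p = 0.000202). Ccl2 was at 1.16, 1.45 and 1.01 CPM and fell by 1.92 on the log2 scale (SE 0.31, edgeR adjusted p = 0.000388).

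The low members gave no call under TGF-β. Ccl6 was at 0.336, 0 and 0.116 CPM and Ccl7 at 0, 0.344 and 0.0289 CPM, both overlapping with control. Their log2 changes of -1.47 (SE 0.85) and -2.20 (SE 1.02) had edgeR adjusted p of 0.216 and 0.131. Ccl7 passed (log2 -4.84, edgeR adjusted p = 0.0149) when TGF-β library 2 was left out, and with limma-voom (log2 -3.59, adjusted p = 0.0299). Ccl8 had no count in any TGF-β library, and Ccl12, at 0.0611, 0.268 and 0.347 CPM, was too low to be tested in the main fit. Its log2 change was 0.55 with a filter of 1 count (edgeR adjusted p = 0.749) and 0.57 with all 12 cell libraries in the fit (0.648). Without control library 3 it was -0.03.

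**Figure D3:**
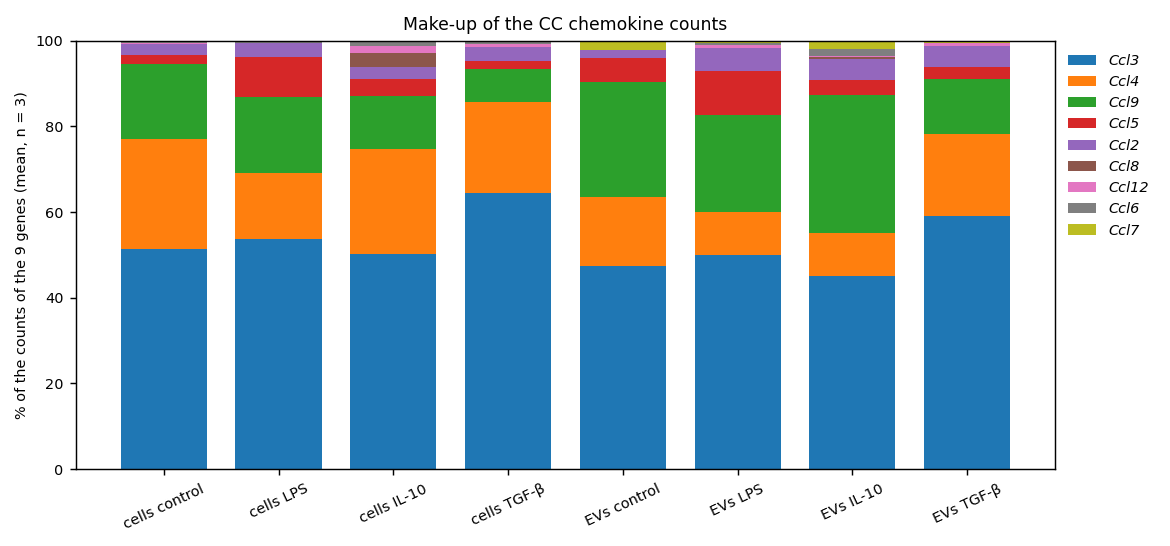
Mean share of each member in the summed counts of the 9 CC chemokine genes (vertical axis, percent, n = 3) in each of the 8 groups. In cells, Ccl3 is the main part, Ccl5 widens from 2.13% in control to 9.33% after LPS, and Ccl8 appears after IL-10 at 3.22%.

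Direct contrasts between treatments, fitted over the 12 cell libraries, set LPS apart from both cytokines. LPS against IL-10 gave 9 calls among 9 members, 7 higher and 2 lower, where 27% of the 12148 genes tested were called higher and 26.3% lower. Ccl8 passed the filter of this fit through the IL-10 libraries, where it was highest. The 2 members lower after LPS were Ccl8 (log2 -4.43, SE 0.51, edgeR adjusted p = 2.76e-06) and Ccl12 (log2 -1.33, SE 0.53, edgeR adjusted p = 0.0423). The Ccl12 call was lost when any of the LPS or IL-10 libraries was left out (edgeR adjusted p = 0.0613 to 0.129), and without LPS library 1 the Ccl8 value was -5.53. Against TGF-β, all 9 were higher after LPS, where 29.3% of genes tested were. Ccl8, with no count after TGF-β, could enter this count only as higher. The log2 differences ran from 2.61 for Ccl12 to 8.24 for Ccl5, with Ccl9 at 7.09 (SE 0.25). At the low end several of these values shifted without 1 library: Ccl6 from 4.92 to 6.16 without TGF-β library 1, Ccl7 from 5.36 to 7.99 without TGF-β library 2 and to 4.74 without TGF-β library 1. Ccl8 after LPS was at least 2.85-fold higher than the TGF-β floor of 3 counts per library, and LPS library 1 held 24 of its 32 counts.

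TGF-β against IL-10 gave 8 lower among 9 tested, where 20% of the genes tested were lower. Ccl8, with no count after TGF-β, passed the filter through the IL-10 libraries and could enter this count only as lower. Ccl12, with 21 counts over the TGF-β libraries, passed it through the LPS and IL-10 libraries, where it was higher. Ccl5 was 11.5-fold lower (log2 -3.52, SE 0.30, edgeR adjusted p = 1.21e-06) and Ccl9 8.68-fold lower (log2 -3.12, SE 0.23, edgeR adjusted p = 8.85e-07). Ccl12 was also lower (log2 -3.94, SE 0.65, edgeR adjusted p = 8.57e-05), and Ccl8 was at least 55.7-fold higher after IL-10 than the TGF-β floor of 3 counts per library. Ccl6 was lower too (log2 -3.33, SE 0.59, edgeR adjusted p = 0.000167), and its value was -4.57 without TGF-β library 1. Ccl7 was not called (edgeR adjusted p = 0.0966) unless TGF-β library 2 was left out (log2 -4.75, edgeR adjusted p = 0.00529).

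Among receptor genes, Ccr1 and Ccrl2 changed in cells. Ccr1, the receptor for Ccl3, Ccl5, Ccl6 and Ccl9, was at 14.3, 17.1 and 14.5 CPM in control cells, 1.35, 2.69 and 1.71 CPM after LPS and 1.41, 0.803 and 0.866 CPM after TGF-β. The latter 2 groups lay below all control libraries. Ccr1 fell by 3.09 on the log2 scale after LPS (SE 0.22, edgeR adjusted p = 8.04e-10) and by 3.88 after TGF-β (SE 0.23, edgeR adjusted p = 5.20e-08), and was not called after IL-10 (15.7 ± 3.14 CPM, edgeR adjusted p = 0.363). Ccrl2, an atypical receptor that binds chemerin and does not signal, had 4 counts in all control cells and was at 14.6, 17.0 and 18.4 CPM after LPS (log2 8.35, SE 0.39, edgeR adjusted p = 2.33e-12). Ccr10, a receptor of skin-homing lymphocytes, was not called under any treatment in cells, and Ackr3 had no count in any cell library.

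**Figure D4:**
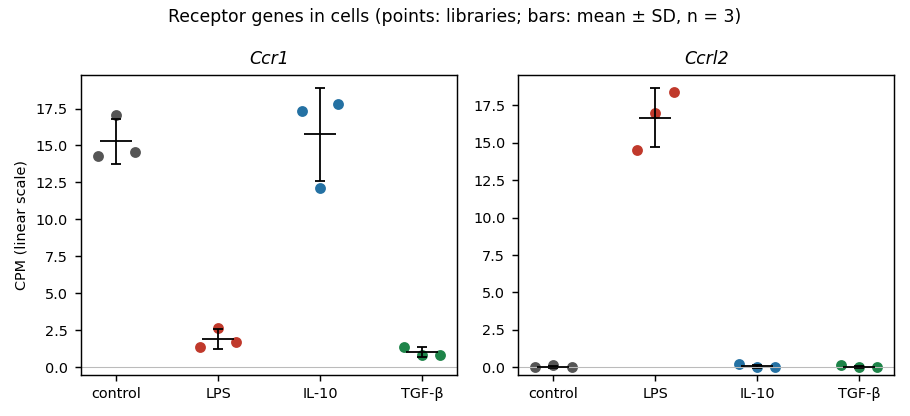
Level of Ccr1 and Ccrl2 in each cell library (points, CPM on a linear axis) with mean ± SD of n = 3. Ccr1 is low after LPS and TGF-β, and Ccrl2 stands out after LPS.

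Other genes of the pathway were counted from lists. Of 15 other CC ligands, 2 were listed: Ccl24, an eosinophil attractant, fell by 2.46 on the log2 scale after LPS (SE 0.62, edgeR adjusted p = 0.00225), and Ccl25 was not called against control in cells. Of 22 genes for enzymes and proteoglycans that trim or bind chemokines, 18 were listed. After LPS, 6 of 16 tested rose and 8 fell, where 28.6% of all genes tested were called higher and 27.5% lower, and the median log2 change was -0.31. The gelatinase Mmp9 rose (log2 3.26, SE 0.11), while the aminopeptidase Anpep (log2 -2.04, SE 0.07) and the syndecan Sdc3 (log2 -1.92, SE 0.08) fell. After IL-10, 5 of 17 rose and 4 fell, with a median of -0.03, where 12.3% of all genes tested were called higher and 10.9% lower. The elastase Mmp12 fell by 1.37 (SE 0.09), and the syndecan Sdc1 (log2 1.03, SE 0.07) and the convertase Furin (log2 0.75, SE 0.06) rose. After TGF-β, 3 of 17 rose and 6 fell, with a median of -0.10, where 14.5% of all genes tested were called higher and 15.4% lower. Those that fell included Mmp12 (log2 -4.83, SE 0.12), Anpep (-1.57, SE 0.08) and Sdc1 (-1.28, SE 0.09).

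The list of transcription factors, signalling genes and mRNA decay factors that act on chemokine genes held 29 genes, all listed and tested in cells. After LPS 16 rose and 8 fell, against the 28.6% and 27.5% of all genes tested, with a median log2 change of 0.33. Nfkbiz (log2 4.63, SE 0.14) and the feedback inhibitors Nfkbia (3.87, SE 0.08) and Tnfaip3 (2.88, SE 0.10) were the 3 with the lowest adjusted p. After IL-10 15 rose and 5 fell, against 12.3% and 10.9%, with a median of 0.33, led by Bcl3, a nuclear partner of NF-kB (log2 2.98, SE 0.15), Zfp36, which promotes decay of AU-rich mRNAs (1.35, SE 0.10), and Stat3, which transmits the IL-10 signal (0.78, SE 0.06). After TGF-β 7 rose and 10 fell, against 14.5% and 15.4%, with a median of -0.13, and Jun (log2 -1.05, SE 0.07), Irf5 (-0.68, SE 0.07) and Atf3 (-0.69, SE 0.07) fell.

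Likeness of pattern was described by Pearson r of log2(CPM + 0.5) over the 12 cell libraries, which share their groups and hence a common step between treatments. Ccl2 was most alike Ttc39c (r = 0.992) and Ccl3 (r = 0.990), and Ccl3 most alike Vdac3 (r = 0.995) and Ttc39c (r = 0.994). Both Ccl4 (r = 0.996) and Ccl9 (r = 0.994) were most alike Rac2, followed by Hcar2 (r = 0.995) for Ccl4 and Mlkl (r = 0.992) for Ccl9. Ccl5 was closest to H2-Q5 and Prdx5 (both r = 0.993), and Ccl6 to Apobec3 (r = 0.975) and Mtf1 (r = 0.973). Ccl8 stood with Fbxl5 (r = 0.989) and A4galt (r = 0.981). Ccl7 and Ccl12 had mean counts below 50 and were not used.

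The nearest listed gene that is no chemokine was read on each side of the 2 runs. Unlisted genes were passed over, so these need not be direct neighbours. Wfdc17, a gene for a small secreted WAP-domain protein, was the nearest listed gene beyond Ccl4 in RefSeq order. It was at 38.7 ± 3.48 CPM in control cells, 254 ± 12.8 after LPS, 341 ± 61.0 after IL-10 and 8.53 ± 0.818 after TGF-β. Its log2 changes were 2.65, 3.30 and -2.18 (edgeR adjusted p = 3.00e-15, 7.84e-06 and 4.33e-08). Myo1d, the nearest listed gene before Ccl2 in that order, fell by 1.36 on the log2 scale after LPS (edgeR adjusted p = 5.01e-09) and was not called under the cytokines. Taf15 and Zfp830, at the other edges, were not called under any treatment.

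In EVs, libraries of a group differed more than in cells. Ccl6 and Ccl12, with 40 and 13 counts in control cells, had none in control EVs. The 9 genes summed to 834, 237 and 676 CPM in control EVs, 236, 254 and 1108 CPM in IL-10 EVs and 98.4, 520 and 80.9 CPM in TGF-β EVs. The high library of IL-10 and of TGF-β was the deepest of its group, at 8.62 and 9.80 M counts, and the low control library the shallowest, at 5.65 M. The part of depth in this spread was not tested. Ccl3 remained first per kilobase in each EV group, at 397 ± 262 CPM per kb in control EVs.

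LPS EVs stood apart from the other EV groups in genes that had no signal in cells. There were 116 listed genes at 0 in all 12 libraries from cells. Every listed gene had 240 or more counts over the 24 libraries, so each of the 116 held at least that many in EVs. Their EV levels, and the medians taken from them, are therefore set in part by this cut. In LPS EVs 97.4% to 100% of the 116 were detected, with library medians of 9.38, 40.1 and 19.8 CPM, against 5.17% to 17.2% and medians of 0 in all other EV libraries. The neuronal markers (3 of 5 listed) summed to 20.1 to 146 CPM in LPS EVs and at most 14.5 CPM in other EVs, and those of astrocytes (3 of 5 listed, also at 6.27 to 13.4 CPM in cells) to 55.1 to 239 CPM and at most 42.2 CPM. Markers of B cells, fibroblasts and endothelium, with 1 or 2 genes listed each, were higher in LPS EVs as well, at 14.5 to 46.4, 10.3 to 51.3 and 13.7 to 72.5 CPM against at most 8.79, 0 and 0 CPM. The 2 T cell markers listed overlapped (14.2 to 37.4 against 0 to 63.6 CPM), as did the 1 oligodendrocyte marker, Mbp (0.686 to 4.31 against 0 to 60.5 CPM). Their part in the results below was not tested, other than by lowering each LPS EV count by that library's median.

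Against control EVs, 5 of the 8 members tested were called higher in LPS EVs, where 13.9% of the 12216 genes tested were. The median log2 change was 2.61 for the 8 members and 0.33 over all genes tested. Among those called, Ccl6 and Ccl12 had no count in control EVs. They passed the filter only through the LPS EVs, so they could enter the count and the median only as higher. DESeq2 called 6 and limma-voom 4. With edgeR the calls numbered 0 without any 1 of the 3 LPS EV libraries, 0 with all 12 EV libraries in the fit, 0 with a mean of at least 50 counts required, and 0 after lowering the LPS EV counts as described above, with 6 members tested in each of the last 2. After lowering, the log2 values were 3.93 for Ccl2, 3.36 for Ccl5, 2.66 for Ccl9 and -1.10 for Ccl7, while Ccl6 and Ccl12 were no longer tested. Library totals and scaling were then taken from the lowered counts, which raises the scaled level of abundant genes. These values therefore cannot show whether the changes hold without background.

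Ccl2 was at 19.6, 4.78 and 9.27 CPM in control EVs and at 189, 125 and 152 CPM in LPS EVs (log2 3.68, SE 0.67, edgeR adjusted p = 0.0250). Ccl5 was at 58.2, 10.5 and 37.1 CPM in control EVs and at 402, 230 and 273 CPM in LPS EVs (log2 3.01, SE 0.69, edgeR adjusted p = 0.0255). Ccl9 was at 140, 99.9 and 148 CPM and at 840, 518 and 626 CPM (log2 2.22, SE 0.45, edgeR adjusted p = 0.0250). For these 3 genes the groups did not overlap, as for 32.6% of the genes tested, and each LPS EV value lay above the median of the genes silent in cells in the same library. The calls of Ccl5 and Ccl9 were also lost without a control EV library (Ccl5 without library 3, edgeR adjusted p = 0.0568, and Ccl9 without library 2, 0.0508).

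Ccl12 and Ccl6 had no count in any control EV library. In LPS EVs Ccl12 was at 22.4, 20.2 and 19.3 CPM, at least 55.0-fold higher than the control floor of 3 counts per library (edgeR adjusted p = 0.0250). Ccl6 was at 8.47, 8.28 and 14.8 CPM, at least 28.0-fold higher (edgeR adjusted p = 0.0250). Of the 116 genes silent in cells, 86 had a higher mean in LPS EVs than Ccl12 and 110 a higher mean than Ccl6, so both genes lay within the range of these listed genes. Being listed required at least 240 counts in EVs of a gene silent in cells, while Ccl6 had 155 counts in LPS EVs and Ccl12 280. The ranking therefore cannot show where both genes stand among all genes that cells did not express. Ccl3 (1919, 1142 and 1324 CPM, against 430, 72.3 and 409 in control EVs) and Ccl4 (372, 243 and 266, against 180, 36.7 and 72.9) did not overlap with control, but their log2 changes of 2.17 (SE 0.70, edgeR adjusted p = 0.106) and 1.51 (SE 0.62, edgeR adjusted p = 0.217) did not pass. Ccl3 was called by DESeq2 (adjusted p = 0.00646) and limma-voom (adjusted p = 0.0400). Without control EV library 1, Ccl4 passed (log2 2.23, edgeR adjusted p = 0.0351). Ccl7 overlapped between the groups (5.51, 13.1 and 0 CPM against 5.95, 9.27 and 26.6), and Ccl8 had 1 count in the 3 LPS EV libraries.

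**Figure D5:**
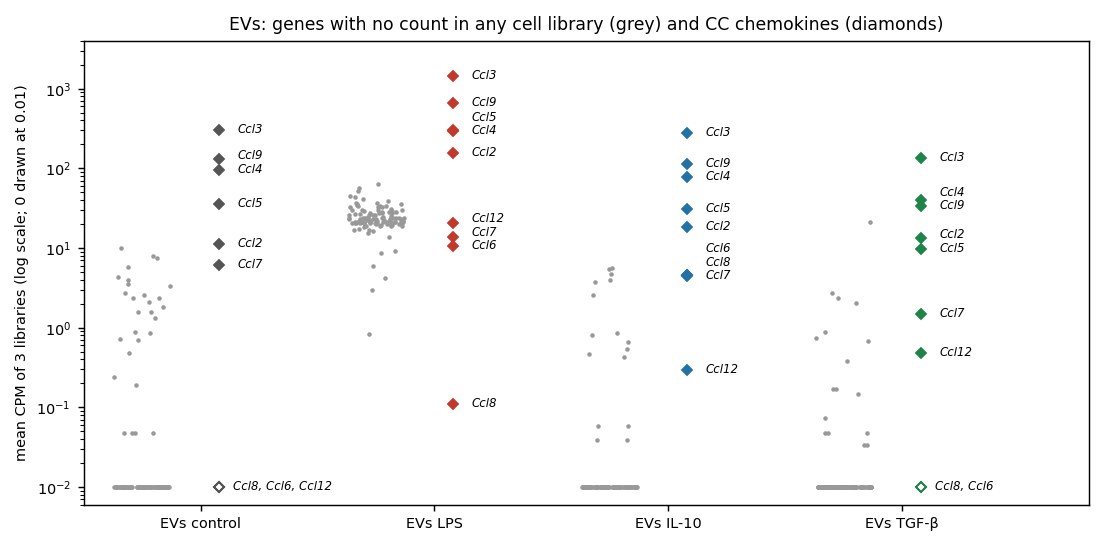
Mean CPM over the 3 EV libraries of a group, on a log axis, for the 116 genes with no count in any cell library (grey points) and for the CC chemokines (diamonds; 0 is drawn at 0.01). In LPS EVs, Ccl6, Ccl7 and Ccl12 lie among the grey points, and Ccl2, Ccl3, Ccl4, Ccl5 and Ccl9 lie above all of them.

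IL-10 and TGF-β gave no called member in EVs. In simulated data the edgeR fit recovered 0% of known 8-fold changes in either comparison. It also recovered 0% for LPS EVs against control EVs, where the real data gave 1703 of 12216 genes called higher. The simulated setting thus differs from the real data and does not measure what the real fits can detect. A lack of calls here cannot show a lack of change. With edgeR, 0 of the 8992 genes tested (0%) passed for IL-10 EVs and 0 of 9093 (0%) for TGF-β EVs. At an unadjusted p under 0.05 there were 177 and 360 genes, none of the 6 members tested among them, and DESeq2 called 45 and 77 genes and limma-voom 0 and 0, again without a member. Ccl8, which IL-10 raised in cells, was at 2.11, 0 and 11.5 CPM in IL-10 EVs and had no count in control or TGF-β EVs. Ccl9 was at 0, 82.3 and 18.4 CPM in TGF-β EVs, each below the lowest control EV value of 99.9 CPM, and did not pass (log2 -1.75, SE 1.59, edgeR adjusted p = 0.999). Groups that do not overlap in CPM were found for 17.5% of all genes tested there.

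EVs were set against their own cells for each treatment. In control samples 1 of 6 members tested was called higher in EVs, where 1.23% of the 11427 genes tested were: Ccl9, at 99.9 to 148 CPM against 24.8 to 30.7 CPM in cells (log2 2.20, SE 0.26, edgeR adjusted p = 0.0216). In IL-10 samples it was again Ccl9 that was called, 1 of 9, where 7.49% of genes tested were higher (log2 2.44, SE 0.31, edgeR adjusted p = 0.0184; 77.4 to 132 CPM against 18.3 to 23.4). Both calls were lost without any 1 of the 3 cell libraries of that comparison, although the groups did not overlap (as for 40.5% of genes tested in control and 50.9% in IL-10 samples). In TGF-β samples 0 of 5 were called with edgeR, where 9.42% of genes tested were higher. Ccl3 and Ccl4 were under an unadjusted p of 0.05, as were 3232 of the 11389 genes tested. DESeq2 called 2 members among 3691 genes, and limma-voom 1 among 3432. In LPS samples 1 of 8 was called, where 25.3% of genes tested were higher: Ccl12, at 19.3 to 22.4 CPM in EVs against 1.26 to 1.71 in cells (log2 3.56, SE 0.52, edgeR adjusted p = 0.00121). After the LPS EV counts were lowered, the Ccl12 value was 1.94 and no longer passed (edgeR adjusted p = 0.518).

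Whether the LPS effect differed between EVs and cells was tested by an interaction. It was called for 4 of the 8 members tested, where 14.1% of the 13263 genes tested were higher and 2.04% lower. The LPS effect in EVs was below that in cells for Ccl5 (log2 difference -2.89, SE 0.75, edgeR adjusted p = 0.0227) and Ccl9 (-1.65, SE 0.40, edgeR adjusted p = 0.0165). Control EVs already held 10.5 to 58.2 CPM of Ccl5, against 2.60 to 5.54 CPM in control cells, and these ranges did not overlap, as for 40.5% of genes tested. That difference did not pass (log2 3.24, SE 0.84, edgeR adjusted p = 0.0769), although it did with DESeq2 (adjusted p = 8.56e-05) and without control EV library 2 (edgeR adjusted p = 0.0199). For Ccl6 (edgeR adjusted p = 0.0122) and Ccl12 (edgeR adjusted p = 0.0490) the effect in EVs was above that in cells, with the control EVs at 0 and the LPS EVs within the range of genes silent in cells. No call was left after lowering the LPS EV counts, nor with limma-voom. The differences were then -2.36 (edgeR adjusted p = 0.0852) and -2.86 (limma-voom adjusted p = 0.161) for Ccl5, and -1.02 (0.0519) and -1.88 (0.101) for Ccl9. The interaction gave 0 calls among 9 members for IL-10 and 0 among 6 for TGF-β with edgeR, where 0.285% and 0.31% of genes tested were called. None of the members was at an unadjusted p under 0.05, where 1440 of 11930 and 1567 of 11954 genes were. DESeq2 called 701 and 780 genes and limma-voom 2 and 4, none of them a member.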

How the data were processed

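Total RNA of BV2 cells and of their EVs was sequenced after SMART-Seq v4 and Nextera XT library preparation with 18 PCR cycles, per the labels' protocols. The authors deposited raw counts per gene in 6 tables, each with 3 treated and 3 control libraries of cells or EVs. The submitters' processing notes name DESeq2; that tool's version is not given in the sources used here, nor are the aligner and the build. Column names tie columns to groups but not to single samples, so replicates were numbered by column. Every listed gene had 240 or more counts summed over the 24 libraries, so genes under a mean of 10 per library are not in these tables. Depth ran from 3.02 to 42.13 M counts per library, with 0 columns left unmapped.

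The members, the gene lists and the tests were chosen with earlier results of these data known. All genes were fitted with edgeR 4.0.16 (TMM, filterByExpr, robust quasi-likelihood, Benjamini-Hochberg over all genes tested, threshold 0.05) in R 4.3.3, on the 6 libraries of a comparison, the 12 cell libraries for contrasts between treatments, or 12 libraries with an interaction of compartment and treatment. Standard errors were derived from the log2 fold change and its F statistic. Levels are CPM of library totals, and a group at 0 was set to a floor of 3 counts per library. Exon lengths came from GENCODE M21, which may differ from the annotation the authors used. All members were named; of each list, up to 3 genes past the threshold by adjusted p; for likeness, the 2 genes with the highest r among those with a mean of at least 50 counts; and the nearest listed gene beside each run. Receptors and other ligands outside that rule were named after their values were seen. 1 receptor gene and 1 coding stretch are not reported here.

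The alternatives tried were DESeq2 1.42.0, RLE scaling, limma 3.58.1 (voom with quality weights), a minimum of 1 count or a mean of at least 50, all 12 libraries of a compartment, library size without TMM for EVs against cells, TMM scaling of the summed levels, and leaving out each library. Lowering the LPS EV counts by the median of the 116 genes silent in cells and a replicate block on the number in the column names were chosen after seeing the data. After lowering, library totals and scaling were taken from the lowered counts. The fits were first tested on simulated data with known changes, which were largely recovered in cells, missed between EV groups and between control EVs and cells, and almost all missed in the LPS interaction. Descriptions and figures used Python 3.11.15 with pandas 2.3.3, numpy 2.4.6, Biopython 1.88 and matplotlib 3.10.9.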

Additional observations from a re-analysis of the deposited data

Results flagged for a closer look

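The LPS effect differed between EVs and cells for 4 members by the interaction of compartment and treatment, the test of the difference itself. The log2 effect in EVs minus that in cells was -2.89 for Ccl5, with an edgeR adjusted p of 0.0227 over all genes tested, and 10 of 19 alternatives kept the call. For Ccl9 the difference was -1.65 (edgeR adjusted p = 0.0165), called in 14 of 19 alternatives. For Ccl6 it was 6.95 (edgeR adjusted p = 0.0122) and for Ccl12 8.28 (edgeR adjusted p = 0.0490), called in 17 of 19 and 6 of 18 alternatives. The last 2 values depend on the small count that the fit adds, because control EVs had no count of either gene, and are no measure of size. Without control cell library 1, which held 12 of the 13 control counts of Ccl12, its difference was 5.35 and no longer passed (edgeR adjusted p = 0.233).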

How the results depend on the processing

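Column names number the libraries 1 to 3 in each group, with no label for what a number shares. Over 13 pairs of groups, deviations of same-numbered libraries from their group means had r of -0.227 to 0.37, in 0 of 13 was r over 0.1 for all 3 numbers, and in 0 of 13 did every library correlate best with its own number, so the numbers were not taken to pair the samples. A fit with the number as a replicate block, chosen after seeing the data, gave 0 members called in LPS EVs (5 without it), 0 for control and for IL-10 EVs against cells (1 each), 8 for LPS against IL-10 cells (9) and 3 for the LPS interaction (4), and the same counts in the other 11 comparisons. In the blocked fit the log2 values of Ccl4 and Ccl6 in IL-10 EVs against cells were -0.36 and -3.36. Those of Ccl2 in TGF-β EVs against control EVs and of Ccl12 in the IL-10 interaction were -0.58 and -0.46. All of these are changes of sign in values not called. Apart from the block, over 1327 values of single members under an alternative, 1186 kept their direction and their side of the threshold, 75 lost a call, 39 gained one and 27 changed sign; values of single members were not listed for the 4 comparisons of IL-10 or TGF-β EVs and of their interactions, where no member was called. LPS against control cells and LPS against TGF-β cells kept all 95 and 151. Members called in LPS EVs numbered 5, with 6 by DESeq2, 4 by limma-voom and 0 with a mean of at least 50 counts, with all 12 libraries and after lowering the LPS EV counts, and 0 to 6 when a library was left out. IL-10 cells gave 2 to 4 of 4 when a library was left out. For EVs against cells, control gave 1, with 3 by DESeq2 and 0 to 3 when a library was left out. LPS gave 1, with 2 by DESeq2, by limma-voom and with a mean of at least 50 counts, 3 with library size only, 5 after lowering the counts (4 higher, 1 lower) and 1 to 3 when a library was left out. IL-10 gave 1, with 2 by DESeq2 and by limma-voom and 0 to 3 when a library was left out. TGF-β gave 0, with 2 by DESeq2, 1 by limma-voom and 0 to 4 when a library was left out. The LPS interaction gave 4, with 0 by limma-voom and after lowering, 2 with a mean of at least 50 counts and 1 to 6 when a library was left out. The summed level in IL-10 cells was 186 CPM under TMM scaling, against 164.5 CPM in control cells. The cause of these shifts was not tested.

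The 27 changes of sign, given as log2 changes, were in values that were not called before, except for Ccl6 in the LPS interaction, which went from 6.95 to -3.44 (not called) when the LPS EV counts were lowered. Of the values with a changed sign, 2 passed, both of Ccl6 in EVs against cells: -9.61 for LPS with the counts lowered (edgeR adjusted p = 0.00378) and -8.14 for IL-10 without IL-10 EV library 2 (0.0263). Leaving out a library gave -0.064 to 0.45 for Ccl2, -0.019 to 0.24 for Ccl4 and -0.69 to 0.22 for Ccl7 in IL-10 cells. In LPS EVs against cells it gave -0.29 to 0.38 for Ccl3 and -0.050 to 0.65 for Ccl5. In IL-10 EVs against cells it gave -1.33 to 1.24 for Ccl4, -0.66 to 2.64 for Ccl5, -8.14 to 2.24 for Ccl6 and -2.08 to 0.20 for Ccl8, and for Ccl2 in the LPS interaction -0.67 to 0.25. With limma-voom, Ccl3 was at -0.14 in LPS EVs against cells, Ccl4 at -0.82, Ccl5 at -2.59 and Ccl6 at -0.18 in IL-10 EVs against cells, and Ccl7 at 0.0071 in the LPS interaction. With the LPS EV counts lowered, Ccl7 was at -1.10 in LPS EVs against control EVs, Ccl4 at 0.21 and Ccl7 at -0.57 in LPS EVs against cells, and Ccl2 at 0.10 in the LPS interaction. Values of Ccl6 and Ccl8 with 1 group at 0 depend on the small count that the fit adds. In EVs, depth limits what can be seen below 0.167 to 0.994 CPM, the level of 3 counts.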
